A study of Homo sapiens with 9 samples.

Results

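The 9 genes described here are CDK inhibitors and genes of the p53 pathway, chosen by name from the deposited tables: MDM2, CDKN1A, CDKN1B, CDKN1C, CDKN2A, CDKN2B, GADD45A, SESN1 and ZMAT3, 9 of the 60642 gene names counted. The choice was made with earlier results of these data known. All 9 passed the filter on low counts and were among the 18574 genes tested. They were measured by RNA-seq in SNU-398, a mesenchymal-like line from a hepatocellular carcinoma, that is, cells with traits of connective tissue rather than of hepatocytes. All cells carried lentiviral constructs and had been selected with puromycin: 3 libraries held the vector control, 3 overexpressed EMX1-FL and 3 overexpressed EMX1-X1. EMX1-FL is the full-length homeodomain transcription factor and EMX1-X1 is a splice form that ends in another last exon. The control cells are labelled wild type and the others by the transcript overexpressed, and the sources used here do not say whether the stable lines were pools or single clones, or whether the 3 libraries of a group came from separate cultures, so the p-values measure the spread between these libraries.

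CDK inhibitors are proteins that bind cyclin-dependent kinases and hold the cell cycle before DNA replication. The CIP/KIP proteins p21 (CDKN1A), p27 (CDKN1B) and p57 (CDKN1C) bind several cyclin-CDK complexes, while the INK4 proteins p16 (CDKN2A) and p15 (CDKN2B) bind CDK4 and CDK6 and so keep RB able to repress E2F factors. The transcription factor p53 induces CDKN1A together with GADD45A, SESN1, ZMAT3 and MDM2 after DNA damage or other stress, and MDM2 is the ubiquitin ligase that degrades p53. In liver cancer this network is often inactivated.

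In EMX1-FL overexpressing cells CDKN1A, CDKN2B and GADD45A were between 1.28- and 1.49-fold the vector control, and in EMX1-X1 overexpressing cells the same 3 genes were between 1.43- and 1.86-fold, with no overlap between the libraries of the groups compared in either case. Of all genes tested 10.5% did not overlap the vector control with EMX1-FL and 14.7% with EMX1-X1. CDKN2A and CDKN1C were higher in 2 of the 3 EMX1-X1 libraries and near the vector control in the other. MDM2, CDKN1B, SESN1 and ZMAT3 overlapped the vector control in both lines. In bulk RNA such as this, a change in the share of cells that express a gene and a change in RNA per cell cannot be told apart. None of the 9 genes passed an adjusted p under 0.05 in any comparison with edgeR's quasi-likelihood test and Benjamini-Hochberg adjustment over all genes tested, and none reached the study's threshold for differentially expressed genes, an unadjusted p under 0.05 together with a log2 fold change of 1 or more in either direction.

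The genes lie on 6 chromosomes, by the count table (GRCh38). CDKN1A is on chr6:36676460-36687339 and SESN1 on chr6:108986437-109094819, and MDM2 is on chr12:68808177-68850686 and CDKN1B on chr12:12715058-12722369. CDKN2A, on chr9:21967753-21995301, and CDKN2B, on chr9:22002903-22009305, are neighbours on the minus strand. CDKN1C is on chr11:2883213-2885773, GADD45A on chr1:67685201-67688334 and ZMAT3 on chr3:178960121-179072215. Reads of the exons that CDKN2A shares with CDKN2B-AS1 on the other strand, 15.4% of its exon bases, cannot be assigned to either gene without strand and were left out by the default of the counting program, as were the shared parts of MDM2 (9.1%, mostly with AC025423.4), SESN1 (7.09%, with AL390208.1) and CDKN1A (4.79%, with DINOL). The other 5 genes share no exon base with another gene.

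Start sites are shown for the genes that the results turn on, since 2 of them have a structure that the counts per gene do not resolve: CDKN2A has separate promoters for ARF and for p16, and MDM2 has an upstream and a downstream promoter, the latter known for its response to p53. RefSeq (GRCh38.p14) gave 14 windows, from 250 bases before to 50 bases after a start site, for 7 of the 9 genes, with CDKN1C and GADD45A not among them. In the first line the capitals mark a match to the full p53 consensus site, and in the other lines they mark the first 50 transcribed bases. All lines read 5′ to 3′ on the strand of the gene.
MDM2, downstream start, chr12:68808767-68809066, plus strand: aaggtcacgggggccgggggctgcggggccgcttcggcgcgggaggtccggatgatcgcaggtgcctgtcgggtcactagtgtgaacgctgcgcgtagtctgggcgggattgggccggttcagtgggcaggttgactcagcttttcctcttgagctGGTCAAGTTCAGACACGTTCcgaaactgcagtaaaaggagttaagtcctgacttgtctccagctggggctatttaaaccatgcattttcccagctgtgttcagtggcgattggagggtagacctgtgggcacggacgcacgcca
CDKN1A, chr6:36678464-36678763, plus strand: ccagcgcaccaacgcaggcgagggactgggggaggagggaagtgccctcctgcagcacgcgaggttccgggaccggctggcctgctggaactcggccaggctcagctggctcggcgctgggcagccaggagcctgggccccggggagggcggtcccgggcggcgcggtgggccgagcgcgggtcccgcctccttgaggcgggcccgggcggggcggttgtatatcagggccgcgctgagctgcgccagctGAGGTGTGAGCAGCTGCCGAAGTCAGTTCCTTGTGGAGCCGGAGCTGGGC
CDKN2A, upstream start, chr9:21995275-21995574, minus strand: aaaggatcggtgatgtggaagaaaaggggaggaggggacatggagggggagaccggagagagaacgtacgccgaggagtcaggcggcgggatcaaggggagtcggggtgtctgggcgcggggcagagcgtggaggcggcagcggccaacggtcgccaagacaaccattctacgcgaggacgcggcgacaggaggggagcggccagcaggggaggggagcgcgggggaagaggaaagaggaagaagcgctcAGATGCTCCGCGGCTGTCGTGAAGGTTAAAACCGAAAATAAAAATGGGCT
CDKN2A, downstream start, chr9:21974808-21975107, minus strand: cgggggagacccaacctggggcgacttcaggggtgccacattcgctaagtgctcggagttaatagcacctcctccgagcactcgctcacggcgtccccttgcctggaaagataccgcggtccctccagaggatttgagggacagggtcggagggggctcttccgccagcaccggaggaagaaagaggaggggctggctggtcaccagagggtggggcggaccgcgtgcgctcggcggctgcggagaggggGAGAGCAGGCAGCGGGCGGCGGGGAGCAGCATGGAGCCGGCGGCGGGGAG
CDKN2B, chr9:22009256-22009555, minus strand: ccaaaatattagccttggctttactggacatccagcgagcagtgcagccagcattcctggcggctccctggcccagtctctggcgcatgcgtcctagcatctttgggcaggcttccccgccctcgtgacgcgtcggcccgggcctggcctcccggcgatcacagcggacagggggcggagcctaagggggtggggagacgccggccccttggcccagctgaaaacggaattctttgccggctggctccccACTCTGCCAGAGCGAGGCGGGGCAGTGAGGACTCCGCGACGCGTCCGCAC
A match to the full p53 consensus site was searched as 20 bases without a spacer, on both strands, with at most 2 mismatches, and 0.649% of all 35116 windows in the RefSeq table hold one. Among the 14 windows only the 2 that overlap at the downstream start of MDM2 hold it, with 2 mismatches, from 94 to 75 bases before the start site in the window shown. TAATTA, a core that homeodomain proteins bind and its own reverse complement, is in 4.84% of all windows and here only in 1 window of ZMAT3. A match describes letters in these windows and says nothing about binding in these cells, and sites farther from the start were not searched.

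The libraries had 21562703 to 25197970 counted read pairs, and the 9 genes had between 122 and 4746 in a library. EMX1 was at 9.34 to 12.9 CPM (counts per 1000000 counted read pairs) in the vector control, 135 to 251 CPM in EMX1-FL and 145 to 294 CPM in EMX1-X1 cells, so EMX1 was higher in every library labelled with it. Counts per gene do not separate the splice forms, so the labels EMX1-FL and EMX1-X1 were not checked against each other. The mesenchymal markers VIM, FN1, CDH2, ZEB1 and SNAI2 passed the filter, and 7 of 8 liver markers did not: TTR and AFP were at 0 in every library, and ALB, the only liver marker tested, had 10 to 53 counts. In the vector control VIM averaged 845.5 TPM (counts scaled by gene length), FN1 34.3, CDH2 9.77 and SNAI2 3.40. ZEB1 was at 0.384 TPM there, below ALB at 0.618 TPM. The mesenchymal-like label held by VIM, FN1, CDH2 and SNAI2, while ZEB1 was near 0 and hepatocyte markers were absent or near 0. Some markers moved with the groups: SNAI2 was 4.05-fold the vector control in EMX1-FL (edgeR adjusted p = 0.0090) and 2.40-fold in EMX1-X1 cells (adjusted p = 0.185), FN1 was 1.52- and 1.46-fold and ALB 2.76- and 2.15-fold, each with no overlap with the vector control. Of the 5 mesenchymal markers edgeR gave 4 an unadjusted p under 0.05 with EMX1-FL and 3 with EMX1-X1, all higher, where 5.8% and 8.11% of all genes had one. The part of these markers in the results was not tested. None of the 6 leukocyte and endothelial markers passed the filter.

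The libraries fell into 2 clusters on the first principal component, which held 39.6% of the variance, and the clusters did not follow the groups. Cluster A held vector control 1 and 2, EMX1-FL 2 and 3 and EMX1-X1 1, and cluster B held vector control 3, EMX1-FL 1 and EMX1-X1 2 and 3. Both clusters come from the counts, not from the labels or the design. EMX1-X1 had 2 libraries in cluster B and the other groups had 1 each, so the values within each cluster are given beside the results. The libraries of a cluster were not alike on this component. In cluster B vector control 3 was at 17.9 and the others at 42.5 to 50.8. In cluster A EMX1-FL 2 and 3 were at -47.8 and -49.9 and the others at -21.8 to -18.6. Values within a cluster therefore still hold part of this difference, and those of cluster B rest on 1 vector library.
Over all genes tested, the difference of cluster B from cluster A followed the GC content of the transcripts, with a median of -0.58 on the log2 scale at 35 to 40% GC, -0.04 at 45 to 50% and 0.59 at 60 to 65%. The 9 genes spanned this range. CDKN2A (61.4% GC) was 0.86 higher in cluster B on the log2 scale with the group means removed, above 95.6% of all genes tested, and CDKN1A (58.1%), GADD45A (51.5%) and CDKN1C (63.8%) were 0.50, 0.43 and 0.43 higher. ZMAT3 (39.5%), MDM2 (41.9%) and SESN1 (43.4%) were lower, by -0.60, -0.58 and -0.41, and CDKN1B (47.7%) and CDKN2B (44.6%) differed by 0.03 and 0.08. The part of GC content and of the clusters in each result was not tested beyond a fit with the cluster as a covariate and a fit with a GC offset for each library, whose values are given beside the results.

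**Figure D1:**
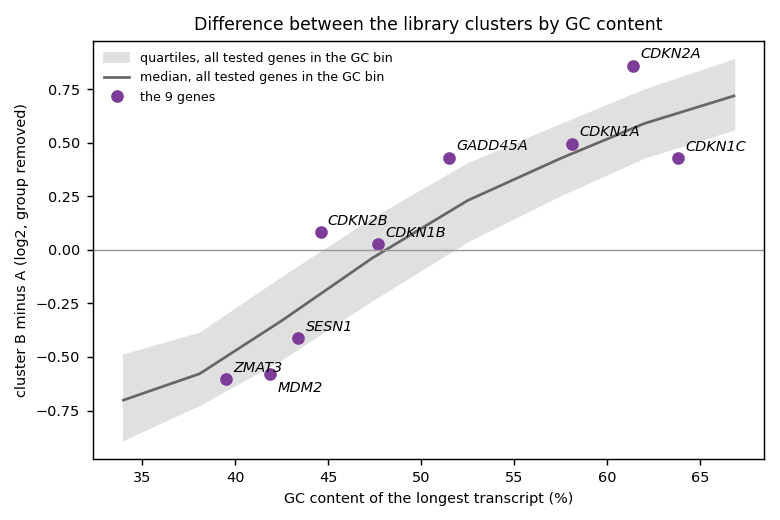
Difference between the library clusters (cluster B minus cluster A, log2 scale, group means removed) against the GC content of the longest transcript in percent. Purple points are the 9 genes, and the grey line and band are the median and quartiles of all genes tested in bins of GC content. CDKN2A at 0.86 lies above the band and ZMAT3 at -0.60 lies near its bin's median.

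On the length-scaled TPM scale GADD45A was the highest of the 9 genes in every group and ZMAT3 the lowest. This scale divides by all annotated exon bases of a gene, not by the transcripts expressed, so the order rests on those lengths. By mean CPM in the vector control MDM2 (157.9) was above GADD45A (65.53), and ZMAT3 (15.24) was above CDKN1A (12.75). In the vector control the means were 119 ± 6.24 TPM for GADD45A (SD, n = 3), 110 ± 12.7 TPM for CDKN1B, 77.3 ± 9.57 TPM for CDKN2B and 66.0 ± 2.29 TPM for CDKN2A. MDM2 followed at 41.4 ± 6.69 TPM, SESN1 at 16.5 ± 3.43 TPM, CDKN1A at 14.6 ± 0.609 TPM, CDKN1C at 8.79 ± 1.16 TPM and ZMAT3 at 4.79 ± 1.36 TPM. Of the 8 neighbouring pairs in this order, only GADD45A with CDKN1B and SESN1 with CDKN1A had libraries that overlapped. The order changed at CDKN1A, which stood above SESN1 in both overexpression groups (22.1 ± 3.74 TPM with EMX1-FL, 29.2 ± 8.2 TPM with EMX1-X1), overlapping SESN1 in EMX1-FL but not in EMX1-X1 cells. It changed also at CDKN2A, which was second in EMX1-X1 cells at 132 ± 55.9 TPM, where its libraries overlapped those of CDKN1B.

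**Figure D2:**
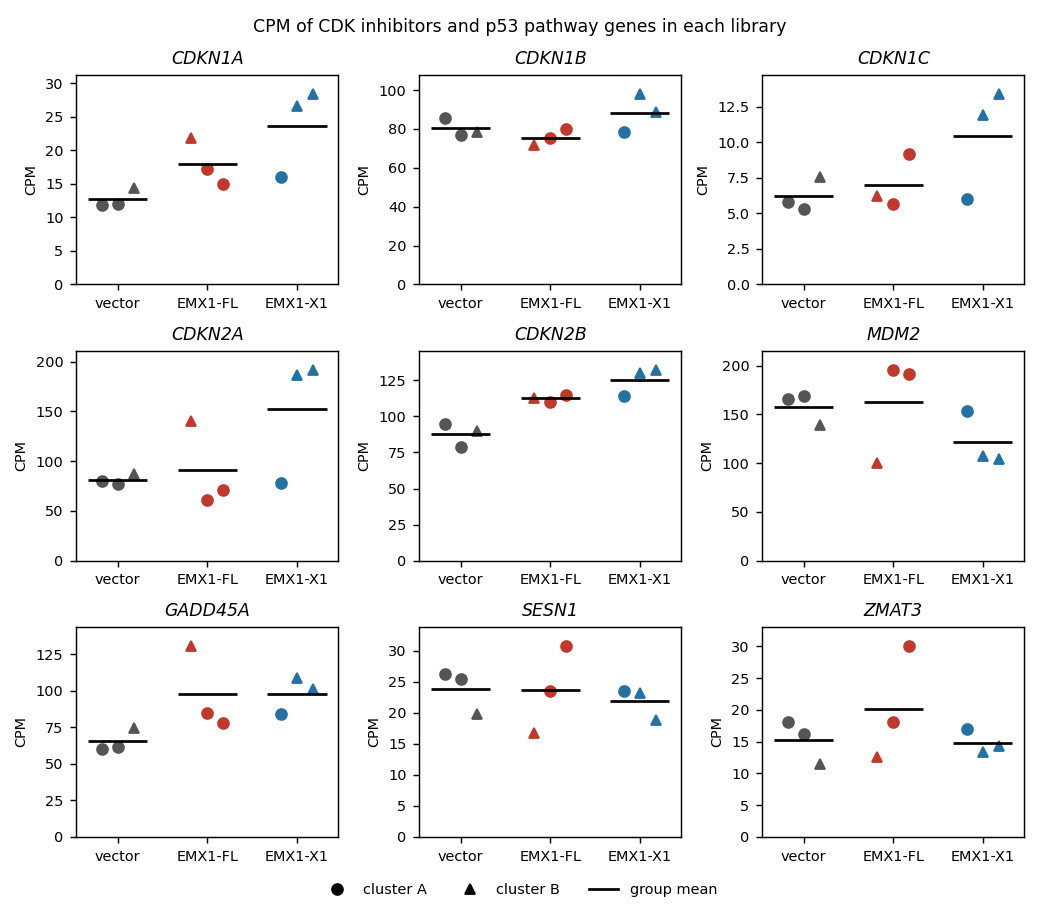
Level of each of the 9 genes in CPM (vertical axes from 0) in the 3 libraries of the vector control, EMX1-FL and EMX1-X1 groups. Circles are libraries of cluster A, triangles those of cluster B, and bars are group means. CDKN1A, CDKN2B and GADD45A lie above the vector control in every overexpression library, while CDKN2A is high in 3 triangles only.

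CDKN1A, which encodes p21, the CDK inhibitor most tied to p53, was at 11.9, 12 and 14.3 CPM in vector control 1 to 3. It was at 21.8, 17.2 and 15 CPM in EMX1-FL 1 to 3 and at 16, 26.6 and 28.4 CPM in EMX1-X1 1 to 3. No overexpression library was as low as a vector library, and the highest values, EMX1-FL 1 and EMX1-X1 2 and 3, were all in cluster B. In EMX1-FL cells the log2 fold change from the vector control was 0.50 (standard error 0.24, 95% interval -0.03 to 1.03, edgeR adjusted p = 0.900). For EMX1-X1 it reached 0.89, a 1.86-fold level (standard error 0.24, 95% interval 0.36 to 1.42, edgeR unadjusted p = 0.00327, adjusted p = 0.461) (rank 130 of the genes tested by p).
The 3 EMX1-FL libraries overlapped the 3 EMX1-X1 libraries, and the log2 difference of EMX1-FL from EMX1-X1 was -0.40 (95% interval -0.92 to 0.13, edgeR adjusted p = 0.611). Within cluster A the log2 differences from the vector control were nearly the same, 0.42 for EMX1-FL against 0.41 for EMX1-X1, and in cluster B they were 0.61 and 0.94. The value for EMX1-X1 cells lay between 0.60 with the GC offset and 1.11 without EMX1-X1 replicate 1, and the unadjusted p was under 0.05 in each of 20 other fits, with adjusted p between 0.0629 and 1. For EMX1-FL cells it was under 0.05 in 6 of 20 fits, among them the fit with the cluster as a covariate (log2 fold change 0.49, unadjusted p = 0.00453, adjusted p = 0.124 in edgeR).

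GADD45A, a stress sensor that binds PCNA, p21 and the mitotic kinase CDK1, was at 60.4, 61.8 and 74.5 CPM in vector control 1 to 3. EMX1-FL 1 to 3 had 130, 84.7 and 78.1 CPM, and EMX1-X1 1 to 3 had 84.2, 108 and 101 CPM. All 6 overexpression libraries were above the vector control, with EMX1-FL 1 the highest and EMX1-FL 3 nearest to it. The log2 fold change was 0.58 in both lines (standard error 0.21 in each, 95% interval 0.11 to 1.05 in each, edgeR unadjusted p = 0.0201 with EMX1-FL and 0.0198 with EMX1-X1, adjusted p = 0.698 and 0.568), a 1.49-fold level. The 2 lines differed by a log2 value of -0.0013 with a 95% interval from -0.47 to 0.47. Within cluster A the log2 differences from the vector control were 0.41 with EMX1-FL and 0.46 with EMX1-X1, and in cluster B they were 0.81 and 0.49. With the cluster as a covariate the value in EMX1-FL cells was 0.55 with an adjusted p of 0.0246 in edgeR, the only call of a gene of the 9 at an adjusted p under 0.05 in that fit, which called 1.53% of all genes in this comparison, and the clusters in it come from the same counts. The GC offset gave 0.56 with an adjusted p of 0.0603. Over the 20 other fits the adjusted p in EMX1-FL cells went from 0.0246 to 1, and the unadjusted p was under 0.05 in 16 of them, not without EMX1-FL replicate 1 (log2 fold change 0.31, edgeR adjusted p = 0.349) without vector control replicate 1 or 2 (0.52 in each) or with a replicate block (0.57, edgeR unadjusted p = 0.0510). In EMX1-X1 cells it was lost without vector control replicate 1 or 2 (0.52 in each) or EMX1-X1 replicate 2 (0.50, edgeR adjusted p = 0.999).

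SESN1, a stress-induced inhibitor of mTORC1, and ZMAT3, an RNA-binding protein that affects splicing, stayed near the vector control in most libraries. SESN1 had 19.7 to 26.3 CPM in the vector control, 16.8 to 30.8 CPM in EMX1-FL and 18.8 to 23.5 CPM in EMX1-X1 cells. Its log2 fold change was -0.01 in EMX1-FL (95% interval -0.52 to 0.50) and -0.13 in EMX1-X1 cells (95% interval -0.63 to 0.38). Within cluster A these were 0.05 and -0.14, and within cluster B -0.23 and 0.08. ZMAT3 had 11.4 to 18.1 CPM in the vector control and 13.3 to 16.9 CPM in EMX1-X1 cells, and in EMX1-FL 1 to 3 it had 12.6, 18 and 30.0 CPM. The EMX1-FL mean rested on the third of these libraries: the log2 fold change was 0.41 (95% interval -0.24 to 1.05, edgeR adjusted p = 0.997) and 0.0055 without EMX1-FL replicate 3. The ZMAT3 difference with EMX1-FL was 0.44 within cluster A and 0.14 within cluster B, and with EMX1-X1 it was -0.02 and 0.27.

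MDM2 had 165, 169 and 139 CPM in vector control 1 to 3, 100, 196 and 191 CPM in EMX1-FL 1 to 3 and 154, 107 and 104 CPM in EMX1-X1 1 to 3. All 4 libraries of cluster B were below all 5 of cluster A, whatever their group, and the groups overlapped. The log2 fold change was 0.04 in EMX1-FL cells (95% interval -0.51 to 0.59, edgeR adjusted p = 0.997) and -0.38 in EMX1-X1 cells (95% interval -0.93 to 0.18, edgeR adjusted p = 0.689). In cluster A the EMX1-FL libraries were 0.21 above the vector control on the log2 scale. In cluster B the log2 difference of the EMX1-FL library from the vector library was -0.47, the other direction, but this is 1 library against 1. On the first principal component EMX1-FL 1 was at 47.9 and vector control 3 at 17.9. With the GC offset the value in EMX1-X1 cells was -0.29, with an unadjusted p of 0.0447 and an adjusted p of 0.387 in edgeR, in a fit where 12.5% of all genes had an unadjusted p under 0.05, and its values were -0.12 within cluster A and -0.40 within cluster B. With the group means removed, the difference of cluster B from cluster A was 0.50 on the log2 scale for CDKN1A and -0.58 for MDM2. Over all genes at 55 to 60% GC, where CDKN1A lies (58.1%), the median difference was 0.43, with quartiles of 0.26 and 0.59. At 40 to 45% GC, where MDM2 lies (41.9%), it was -0.33, with quartiles of -0.51 and -0.13. MDM2 was below these quartiles, SESN1 (-0.41) between them and CDKN2B (0.08), in the same bin, above them. The part of GC content in these differences was not tested.

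CDKN2B, the gene of the INK4 protein p15, had 95.1, 79.1 and 89.7 CPM in vector control 1 to 3. EMX1-FL 1 to 3 had 113, 110.3 and 115 CPM, and EMX1-X1 1 to 3 had 114, 130.1 and 132 CPM. No overexpression library reached down to the vector control, and the EMX1-FL values were within 5 CPM of each other. The log2 fold change was 0.36 in EMX1-FL cells (standard error 0.15, 95% interval 0.03 to 0.69, edgeR unadjusted p = 0.0370, adjusted p = 0.828). For EMX1-X1 it reached 0.51 (standard error 0.15, 95% interval 0.18 to 0.84, edgeR unadjusted p = 0.00574, adjusted p = 0.486). CDKN2B differed little between the clusters, and its values within cluster A (0.38 with EMX1-FL and 0.39 with EMX1-X1) and within cluster B (0.33 and 0.55) had the same direction. The unadjusted p was under 0.05 in all 20 other fits for EMX1-X1 cells, with log2 fold changes from 0.42 to 0.61 and adjusted p from 0.0842 to 1, and in 11 of 20 for EMX1-FL cells, where it was lost without vector control replicate 2 or 3, EMX1-FL replicate 2 or 3 or EMX1-X1 replicate 2 or 3 (log2 fold changes from 0.27 to 0.36, unadjusted p up to 0.170 in edgeR). It was lost also without a filter on low counts (0.35), with only the 6 libraries compared (0.34) and with a replicate block (0.36).

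CDKN2A had 79.7, 77.4 and 87.2 CPM in vector control 1 to 3, 141, 61.2 and 70.7 CPM in EMX1-FL 1 to 3 and 77.6, 187 and 192 CPM in EMX1-X1 1 to 3. EMX1-FL 1 and EMX1-X1 2 and 3, all of cluster B, stood far above the other 6 libraries, and the third library of the vector control, which is also in cluster B, did not. On the first principal component that vector library was at 17.9, between cluster A and the other libraries of cluster B (42.5 to 50.8). The log2 fold change was 0.16 in EMX1-FL cells (95% interval -0.61 to 0.93, edgeR adjusted p = 0.997) and 0.90 in EMX1-X1 cells (standard error 0.36, 95% interval 0.12 to 1.68, edgeR unadjusted p = 0.0268, adjusted p = 0.575). In cluster B the differences from the vector library were 0.69 for EMX1-FL and 1.12 for EMX1-X1 cells, and in cluster A they were -0.26 and -0.02. The values for EMX1-X1 cells within cluster A and for EMX1-FL cells within cluster B rest on 1 overexpression library each. With the cluster as a covariate the EMX1-X1 value was 0.48 (unadjusted p = 0.0266, adjusted p = 0.333 in edgeR) and with the GC offset 0.47 (unadjusted p = 0.0108, adjusted p = 0.254). The unadjusted p in edgeR was no longer under 0.05 when any 1 vector library was left out (0.85 to 0.93) and without EMX1-X1 replicate 2 (0.73) or 3 (0.70) or with a replicate block (0.91, unadjusted p = 0.0543), while without EMX1-X1 replicate 1 the value was 1.22 (edgeR adjusted p = 0.140). The counts cannot tell p16 transcripts from ARF transcripts, which start at the 2 windows printed above.

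The other CIP/KIP genes differed in their pattern. CDKN1B, the gene of p27, which holds CDK2 in resting cells, had 77.1 to 85.9 CPM in the vector control, 71.7 to 79.9 CPM in EMX1-FL and 78.5 to 98.2 CPM in EMX1-X1 cells, and its log2 fold changes were -0.09 (95% interval -0.43 to 0.25) and 0.14 (95% interval -0.21 to 0.48). Within cluster A they were -0.07 and -0.05, and within cluster B -0.13 and 0.25. CDKN1C, the imprinted gene of p57, had 5.82, 5.32 and 7.58 CPM in vector control 1 to 3, 6.21, 5.65 and 9.19 CPM in EMX1-FL 1 to 3 and 6.03, 11.9 and 13.4 CPM in EMX1-X1 1 to 3. EMX1-X1 2 and 3 were its highest libraries and EMX1-X1 1 lay among the vector libraries. The log2 fold change of CDKN1C in EMX1-X1 cells was 0.74 (standard error 0.31, 95% interval 0.07 to 1.42, edgeR unadjusted p = 0.0339, adjusted p = 0.584). It was 0.11 within cluster A and 0.73 within cluster B, with the cluster as a covariate it was 0.57 with an unadjusted p of 0.0506 in edgeR, and with the GC offset it was 0.28 with an unadjusted p of 0.337 and an adjusted p of 0.739 in edgeR. Without vector control replicate 1 or 2 or EMX1-X1 replicate 2 or 3 it was 0.52 to 0.69 with an unadjusted p of 0.0890 to 0.15 in edgeR. In EMX1-FL cells the CDKN1C value was 0.17, with 0.37 within cluster A and -0.28 within cluster B.

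Counted over the 9 genes, 2 had an unadjusted p under 0.05 in EMX1-FL cells (CDKN2B and GADD45A), where 5.8% of all genes did, and 3 did not overlap the vector control, where 10.5% of all genes did not. In EMX1-X1 cells 5 of the 9 had an unadjusted p under 0.05 (CDKN1A, CDKN1C, CDKN2A, CDKN2B and GADD45A), against 8.11% of all genes, and the same 3 did not overlap, against 14.7%. All of these were higher than the vector control. At the study's threshold for differentially expressed genes 0 of the 9 were called in either line, where 2.42% and 2.5% of all genes were. At an adjusted p under 0.05 edgeR, DESeq2 and limma called 0 of the 9 in each comparison, and of all genes edgeR called 13 with EMX1-FL and 1 with EMX1-X1, DESeq2 173 and 67, and limma on log2(TPM + 1) 4 and 1. At an unadjusted p under 0.05 DESeq2 called 2 and 5 of the 9, where it called 6.74% and 9.21% of all genes, and limma called 3 and 5, where it called 6.29% and 9.44%. The median log2 fold change of the 9 genes was 0.17 with EMX1-FL and 0.51 with EMX1-X1, beside 0.04 and 0.01 over all genes tested. Because the 9 genes were chosen with earlier results of these data known, these counts and medians do not test them as a set. Both comparisons share the vector libraries, so their values are not independent of each other, and exact permutation of the libraries, two-sided, could give no p under 0.1 with 3 against 3. With the cluster as a covariate, edgeR gave an unadjusted p under 0.05 for 3 and 4 of the 9 genes, where 15.1% and 12.6% of all genes had one.

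**Figure D3:**
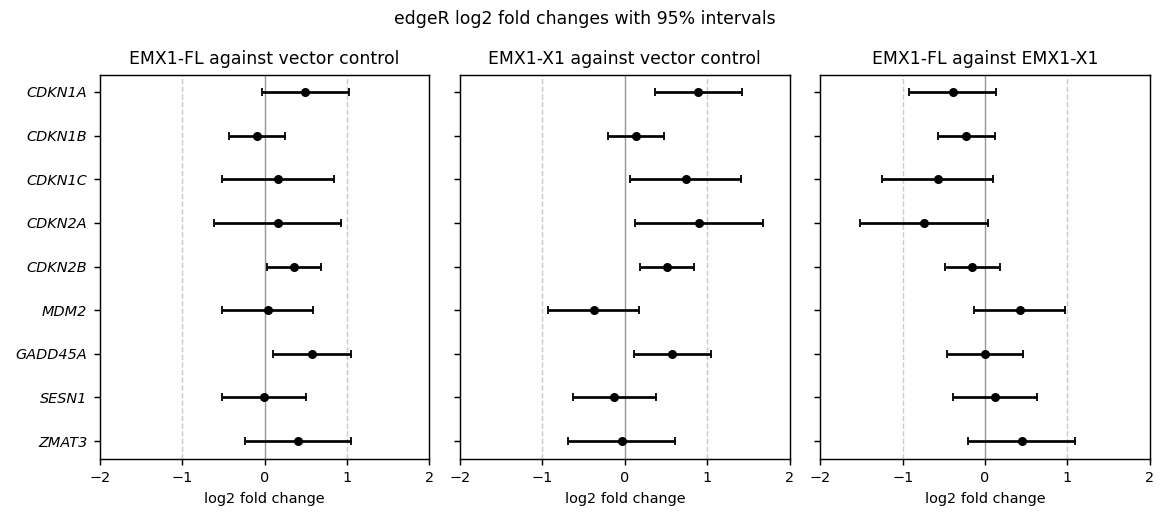
Log2 fold changes of the 9 genes from edgeR in the 3 comparisons, with 95% intervals, a solid line at 0 and dashed lines at the study's fold change threshold of 1 in either direction. All point estimates lie inside the dashed lines, and the EMX1-X1 intervals of CDKN1A, CDKN1C, CDKN2A, CDKN2B and GADD45A lie above 0.

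**Figure D4:**
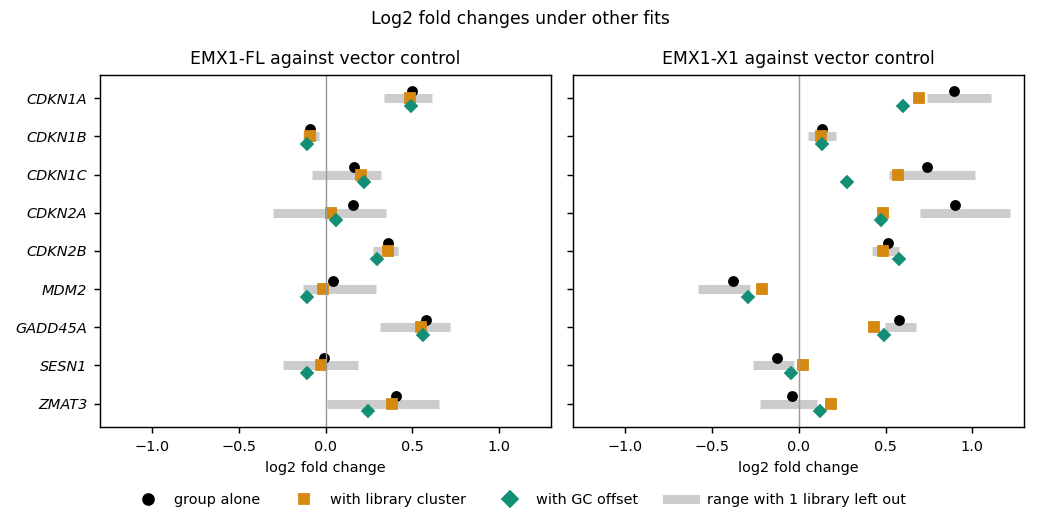
Log2 fold changes of the 9 genes against the vector control with the group alone (black circles), with the library cluster as a covariate (orange squares) and with the GC offset (green diamonds). Grey bars span the fits with 1 library left out. In EMX1-X1 cells CDKN2A goes from 0.90 to 0.48 and 0.47 and CDKN1C from 0.74 to 0.57 and 0.28, while CDKN2B stays between 0.48 and 0.58 in these 3 fits.

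EMX1-FL and EMX1-X1 cells were compared directly. None of the 9 genes passed an unadjusted p under 0.05 in edgeR, where 7.63% of all genes did, none passed the threshold for differentially expressed genes, where 1.42% did, and none had groups that did not overlap, where 8.38% did. DESeq2 called 1 of the 9 at an unadjusted p under 0.05, CDKN2A, where it called 9.11% of all genes, and at an adjusted p under 0.05 edgeR called 0 and DESeq2 2 of all genes. The largest differences were for CDKN2A, with a log2 value of -0.74 for EMX1-FL against EMX1-X1 cells (95% interval -1.52 to 0.03, edgeR unadjusted p = 0.0590, adjusted p = 0.611), and CDKN1C, with -0.57 (95% interval -1.25 to 0.10, edgeR unadjusted p = 0.0871, adjusted p = 0.611). ZMAT3 and MDM2 were on the other side, at 0.44 (95% interval -0.20 to 1.09) and 0.42 (95% interval -0.14 to 0.97). The number called depended on single libraries: without EMX1-FL replicate 1, which leaves the EMX1-FL group with libraries of cluster A alone, MDM2 (log2 difference 0.67, adjusted p = 0.0488) and CDKN2A (-1.20, adjusted p = 0.0444) passed in edgeR, in a fit that called 6.88% of all genes. The intervals do not show any of the 9 genes to be alike in the 2 lines.

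The rest of the pathway was described from lists of genes, chosen by name with earlier results of these data known. Among the proteins that the inhibitors bind, 0 of 11 CDKs and cyclins had an unadjusted p under 0.05 in edgeR in either comparison with the vector control, where 5.8% and 8.11% of all genes had one. Their median log2 fold changes were 0.03 and -0.02. CDK6, a target of the INK4 proteins, had 560 to 842 CPM in the vector control, 478 to 1017 CPM in EMX1-FL and 576 to 913 CPM in EMX1-X1 cells. CDK4 (log2 fold changes -0.17 and 0.02), CDK2 (-0.12 and -0.26) and CCND1 (-0.14 and -0.02) were near the vector control as well, and 44.2% of the exon bases of CDK4 are shared with another gene. None of the 6 RB and E2F genes had an unadjusted p under 0.05, where 5.8% (EMX1-FL) and 8.11% (EMX1-X1) of all genes did. Of the other INK4 inhibitors, CDKN2D, which encodes p19, had 4.54 to 7.99 CPM in the vector control, 5.56 to 10.4 CPM in EMX1-FL and 7.53, 15.3 and 13.6 CPM in EMX1-X1 1 to 3, with a log2 fold change of 0.99 in EMX1-X1 cells (standard error 0.33, edgeR unadjusted p = 0.0105, adjusted p = 0.536). CDKN2C, which encodes p18, was lower in EMX1-FL than in EMX1-X1 cells by a log2 value of -0.63 (edgeR unadjusted p = 0.0233, adjusted p = 0.611). In the same comparison 2 of the 11 CDKs and cyclins had an unadjusted p under 0.05, where 7.63% of all genes did. CCNE2, a cyclin that binds CDK2, was at 0.59 with no overlap between the lines (edgeR unadjusted p = 0.0136, adjusted p = 0.611). Of the 11 CDKs and cyclins 2 had no overlap between the lines, where 8.38% of all genes had none. Other genes share 37.1% of the exon bases of CCNE2. CCND3, a cyclin that binds CDK4 and CDK6, was at -0.73 with overlap (edgeR unadjusted p = 0.0185, adjusted p = 0.611).

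MDM4, the partner of MDM2 that masks p53, had log2 fold changes of -0.20 and -0.29, neither past an unadjusted p of 0.05 in edgeR. Of the 13 genes of the p53 family and its regulators that were tested, 11 were below the vector control in EMX1-X1 cells and 8 in EMX1-FL cells, but only PPM1D had an unadjusted p under 0.05. Of all genes 8.11% had one in EMX1-X1 and 5.8% in EMX1-FL cells. PPM1D, a phosphatase that turns off p53 and its kinases, had 57.1, 51.5 and 47.7 CPM in vector control 1 to 3, 36, 41.5 and 41.4 CPM in EMX1-FL 1 to 3 and 42.3, 37 and 36.5 CPM in EMX1-X1 1 to 3. The 6 overexpression libraries were all below the vector control, with log2 fold changes of -0.40 in EMX1-FL (standard error 0.17, edgeR unadjusted p = 0.0348, adjusted p = 0.818) and -0.43 in EMX1-X1 cells (standard error 0.17, unadjusted p = 0.0227, adjusted p = 0.568). Its values within clusters were -0.39 and -0.41 for EMX1-FL and -0.36 and -0.38 for EMX1-X1 cells. PPM1D, CDKN2D, CDKN2C, CCNE2 and CCND3 were named after their values were seen.

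Of 24 other p53 target genes 23 were tested, and 1 passed the study's threshold with EMX1-FL and 2 with EMX1-X1, all higher, with medians of 0.03 and 0.09. Of all genes tested 2.42% passed it with EMX1-FL and 2.5% with EMX1-X1. PLK2, a polo-like kinase, had only 14 to 23 counts in the vector control and 57, 62 and 25 counts in EMX1-FL 1 to 3, a log2 fold change of 1.35 (standard error 0.40, edgeR unadjusted p = 0.00530, adjusted p = 0.396). BBC3, the gene of the apoptosis inducer PUMA, had 7.41, 4.71 and 4.82 CPM in vector control 1 to 3, 15.5, 4.26 and 6.51 CPM in EMX1-FL 1 to 3 and 6.28, 14.5 and 13.4 CPM in EMX1-X1 1 to 3. PHLDA3, an inhibitor of AKT, was likewise high in EMX1-FL 1 (12.2 CPM) and EMX1-X1 2 and 3 (11.6 and 11.1 CPM) and at 3.17 to 6.37 CPM elsewhere (18.4% of the exon bases of PHLDA3 overlap other genes). These are the libraries in which CDKN2A was high, all of cluster B. In EMX1-X1 cells the log2 fold changes were 1.01 for BBC3 (edgeR unadjusted p = 0.0434, adjusted p = 0.604) and 1.16 for PHLDA3 (unadjusted p = 0.0211, adjusted p = 0.568). Within cluster A they were 0.09 and 0.06, and within cluster B, against 1 vector library, 1.51 and 1.41. With EMX1-FL the log2 fold changes were 0.63 for BBC3 (edgeR unadjusted p = 0.184) and 0.94 for PHLDA3 (edgeR unadjusted p = 0.0533). Within cluster A these were -0.16 and 0.45, and within cluster B, 1 library against 1, 1.67 and 1.52. Among the other GADD45 and sestrin genes, GADD45B passed the study's threshold in EMX1-X1 cells, with 12.4, 6.50 and 10.9 CPM in vector control 1 to 3 and 14.6, 25.7 and 29 CPM in EMX1-X1 1 to 3 (log2 fold change 1.22, standard error 0.34, edgeR unadjusted p = 0.00377, adjusted p = 0.464). The EMX1-X1 libraries of GADD45B were all above the vector control, and its value was 0.69 within cluster A and 1.32 within cluster B. In EMX1-FL 1 to 3 GADD45B had 22.5, 10.8 and 15.7 CPM, overlapping the vector control (log2 fold change 0.72, edgeR unadjusted p = 0.0551). The EMX1-FL libraries also overlapped those of EMX1-X1 (log2 difference -0.50, edgeR unadjusted p = 0.159).

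**Figure D5:**
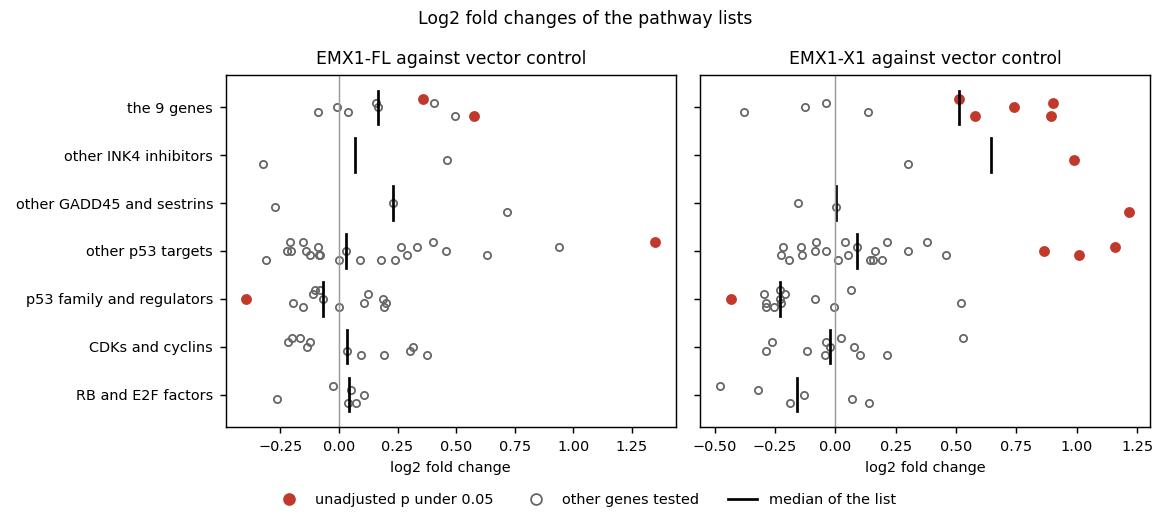
Log2 fold changes from edgeR of the genes of each pathway list in EMX1-FL and EMX1-X1 cells against the vector control. Each circle is a gene, red where the unadjusted p is under 0.05, and black bars are list medians. In EMX1-X1 cells the median of the 9 genes is 0.51, while the other p53 targets lie around 0.09 and the CDKs and cyclins around -0.02. The 9 genes and the lists were chosen with earlier results of these data known.

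The genes whose levels over the 9 libraries followed those of CDKN1A and MDM2 most closely were found by the root mean square difference of log2 CPM after centring. For CDKN1A they were TSPAN18 (0.114), PITPNM2 (0.114) and FSCN1 (0.117), where the median over all genes was 0.548. For MDM2 they were PIGN (0.0471), EFR3A (0.0527) and TMPO (0.0557), where the median was 0.506.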

How the data were processed

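RNA-seq counts of 9 SNU-398 libraries, 3 per group by the labels, were analysed. Raw counts, of read pairs on gene names, are what the authors deposited: by its header the table was made with featureCounts 2.0.1 on Ensembl 99 (GRCh38), while the labels list featureCounts 2.0.6, STAR and fastp and the methods name RSEM. A read pair on 2 genes is not counted by that program's default. The authors also deposited log2(TPM + 1), on the log2 scale, recomputed here from counts and gene lengths to within 5e-06, so the table holds TPM per gene.

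Counts were tested with edgeR 4.0.16 in R 4.3.3 (TMM, filterByExpr, quasi-likelihood F test, 1 fit of the 9 libraries by group, 6 residual degrees of freedom), with Benjamini-Hochberg adjustment over the 18574 genes tested in each comparison. Standard errors were taken as the log2 fold change over the root of F. Within-cluster values are mean differences of log2 CPM with a prior count of 2. DESeq2 1.42.0 and limma 3.58.1, other scalings and filters, a replicate block, the cluster covariate and each library left out were alternatives, with a GC offset (loess, span 0.3, GENCODE 29 transcripts, 95.6% of genes) added after the data were seen. Genes named are the 9 members, their direct partners, listed genes past the study's threshold or an adjusted p under 0.05, and the 3 nearest genes. A result of a gene that this rule names is not reported here. The members and lists were chosen with earlier results of these data known. Chi-square per degree of freedom between libraries of a group was 6.83 to 132, so none was a copy of another. Intervals cover the spread between libraries. Python 3.11.15, pandas 2.3.3 and matplotlib 3.10.9 made tables and plots.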

Additional observations from a re-analysis of the deposited data

How the results depend on the processing

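The number of the 9 genes with an unadjusted p under 0.05 in EMX1-FL cells (2) became 1 without a low-count filter and 1 with only the 6 libraries compared (4.63% and 4.62% of all genes), and was 0 to 3 with 1 library left out (4.22 to 16.8%). In EMX1-X1 cells the number (5) was 2 to 6 with 1 library left out (3.36 to 17.4%), and the number past the study's threshold (0) was 0 to 3 (1.59 to 4.86%), with 3 without EMX1-X1 replicate 1 (CDKN1A, CDKN1C and CDKN2A). Between EMX1-FL and EMX1-X1 it (0) became 1 with DESeq2, 2 without a filter, 1 with the cluster covariate and 2 with the GC offset (9.11, 7.49, 12.9 and 9.21%). With 1 library left out it was 0 to 4 (1.94 to 35.5%), with 0 to 1 past the study's threshold (0.678 to 6.06%) and 0 to 2 past an adjusted p under 0.05 (0 to 6.88%), the highest shares being those without EMX1-FL replicate 1. An adjusted call appeared with the cluster covariate for EMX1-FL (1, GADD45A, 1.53% of all genes) and without a filter for EMX1-X1 (1, CDKN2A, adjusted p = 0.0180, 0.501% of all genes, where 18574 genes became 36554). The causes were not tested.

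After group means were removed, same-numbered libraries correlated with means of -0.135, 0.110 and -0.352 in the 3 comparisons. Libraries of other numbers correlated with means of 0.0743, -0.0596 and 0.164. With 3 libraries per group these values cannot show whether the replicate numbers pair the libraries. With a replicate block the number of the 9 genes with an unadjusted p under 0.05 became 0 in the EMX1-FL and 4 in the EMX1-X1 comparison and stayed 0 between them, where 3.87, 5.23 and 4.04% of all genes had one.

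CDKN1A, CDKN2B and GADD45A kept their direction against the vector control in all 20 other fits in both lines. No value from a test that turned direction had an unadjusted p under 0.05. In EMX1-FL cells SESN1 turned to 0.0119 with library size alone and to 0.0538 and 0.0553 with limma (pseudocounts of 1 and 0.1), CDKN1B to 0.0073 and 0.0074 with limma, and MDM2 to -0.0142 with the cluster covariate and -0.10 with the GC offset. In EMX1-X1 cells ZMAT3 turned to 0.0621 and 0.0796 with limma, 0.19 with the cluster covariate and 0.12 with the GC offset, and SESN1 to 0.0233 with the cluster covariate. Between EMX1-FL and EMX1-X1, GADD45A turned to 0.0007 with RLE factors and DESeq2, 0.0108 with at least 10 counts in every library, 0.0028 with only the 6 libraries compared, 0.12 with the cluster covariate and 0.0735 with the GC offset, and SESN1 to -0.0490 and -0.0604 with the last 2. With 1 library left out the ranges that crossed 0 were, in EMX1-FL cells, -0.24 to 0.19 for SESN1, -0.13 to 0.29 for MDM2, -0.30 to 0.35 for CDKN2A and -0.0756 to 0.32 for CDKN1C, in EMX1-X1 cells -0.23 to 0.10 for ZMAT3, and between the lines -0.27 to 0.14 for GADD45A and -0.12 to 0.31 for SESN1. Within 1 cluster, where no test was made, values of the other direction were, in EMX1-FL cells, -0.26 for CDKN2A and 0.05 for SESN1 (A) and -0.47 for MDM2 and -0.28 for CDKN1C (B), in EMX1-X1 cells -0.0182 for CDKN2A and -0.05 for CDKN1B (A) and 0.08 for SESN1 and 0.27 for ZMAT3 (B), and between the lines 0.0054 for CDKN1A and 0.25 for CDKN1C (A) and 0.32 for GADD45A, -0.08 for MDM2, -0.31 for SESN1 and -0.13 for ZMAT3 (B).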

Other observations

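BAX, a p53 target that promotes apoptosis and the only one of the 24 listed p53 targets that was not tested, had 0 to 7 counts in every library, and no exon base of it is shared with another gene in the count table. Its neighbour GYS1 had 111 to 217 counts and FTL had 10 to 63. These genes beside BAX were looked up after its values were seen, and the cause of the low counts was not tested.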
